A study of Physalis pubescens with 5 samples.

Results

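The transcripts described here are those whose deposited database description names an invertase, a sucrose enzyme, a sugar or polyol transporter, or a protein named after sucrose or invertase. A keyword rule on the descriptions (invertase, fructofuranosidase, sucrose, hexose transport, sugar transport, sweet, monosaccharide or polyol transport, without pectin) chose 291 of 133571 unigenes, which are transcripts assembled from the reads themselves. They comprised 101 enzymes, 161 transporters, 22 regulators (invertase inhibitors and proteins related to the sucrose non-fermenting kinases) and 7 others. The rule used no measured value. The members matched 141 database entries, 65 of which were hit by more than 1 unigene and one by 9, and they had a median length of 531 bases, so several unigenes may stem from one gene, which was not tested, and members are not independent of each other. A KEGG term was deposited for 226 of the members. Every cell wall invertase (21 of 21) carried the term for beta-fructofuranosidase and every sucrose synthase (24 of 24) that for sucrose synthase. Every galactinol-sucrose galactosyltransferase (12 of 12) carried that for raffinose synthase. Transporter terms matched the descriptions less closely. A myo-inositol transporter term was given to 13 sugar transport proteins and to 12 monosaccharide, 17 polyol and 5 hexose transporters. A beta-glucosidase term was given to 2 sugar transport proteins and 1 hexose transporter.

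Sucrose is the sugar that most plants move through the phloem. In sink organs such as flowers and fruits, invertases split it into glucose and fructose, in the cell wall, the vacuole or the cytosol, and sucrose synthase cleaves it reversibly to UDP-glucose and fructose; sucrose-phosphate synthase and sucrose-phosphatase make it. Sucrose transporters carry the intact sugar, SWEET proteins let sugars pass a membrane in either direction, and sugar transport proteins (STPs) take up hexoses together with protons. In anthers of several plants, cell wall invertase and hexose uptake are known to feed developing pollen.

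The series compared young fruits, collected after fertilization, with floral buds, collected before it, of Physalis floridana P106, a nightshade filed under the organism name Physalis pubescens. Plants of both organs had a day of 16 h of light and a night of 8 h in a glasshouse, and no mutation or treatment is given. Each organ had 2 RNA-seq libraries, called replicates 1 and 2 (fruits 1 and 2, floral buds 1 and 2), with 9002212 and 8240033 counts in the fruits and 8645903 and 8375164 counts in the buds; the labels do not say whether they came from separate plants or pools, so p-values describe the spread among these libraries only, and that spread may be technical. The protocol mentions fruits aged 5 days, in a text shared by all samples. A library of mixed organs was not analysed here. Levels are given as counts scaled to the library total (CPM), 1 count being worth 0.111 to 0.121 CPM and the floor of 3 counts 0.333 to 0.364 CPM; intervals and floors cover counting error only.

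The buds resembled each other, and the fruits did not. The buds had Pearson's r of 0.891 over all tested unigenes and 0.945 over the members, in log2 CPM. Over all tested unigenes, fruit replicate 2 had r of 0.94 with floral bud replicate 2 and 0.861 with floral bud replicate 1, against 0.645 with fruit replicate 1; over the 211 members tested these values were 0.927, 0.897 and 0.349. Unigenes described by the words pollen, anther or tapetum (62, of which 49 were tested) summed to 967 and 6523 CPM in fruits 1 and 2, against 2893 and 3498 CPM in floral buds 1 and 2, and 14, 4, 3 and 3 of the 62 had no count in these libraries. A list of photosynthesis words (128 unigenes) summed to 16734 and 6099 CPM in fruits, against 6961 and 6916 CPM in buds, and a list of seed and embryo words (78 unigenes) to 548 and 954 CPM, against 5700 and 5943 CPM. The sum of pollen transcripts was thus highest in a library labelled fruit. Single unigenes of this list did not all follow its sum. A leucine-rich repeat extensin-like one (Unigene53919_P106) gave 1567 CPM in fruit replicate 2, against 707 and 656 CPM in buds. A C13-like one (Unigene53762_P106) was highest in fruit replicate 1, at 495 and 368 CPM in fruits, against 336 and 449 CPM in buds. Early tobacco anther 1 (Unigene69839_P106) was even, at 92 and 97.3 CPM, against 85.8 and 96.1 CPM. The sum of seed transcripts was higher in both buds than in either fruit. Of the 45 tested, 15 lay below both buds in both fruits, beside 13.6% of all tested unigenes. The median log2 fold change of the 45 was -0.25. Every comparison here takes the organ of each library from its label, which was not tested by other means. In bulk tissue, fewer cells of a type and less RNA per cell cannot be told apart. The part of these differences in the values below was not tested, and the leading results that rest on 1 fruit library are given with and without it.

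Of all counts, the members held 0.334% in fruit replicate 1 (Clopper-Pearson 95% interval 0.330% to 0.338%) and 0.955% in fruit replicate 2 (0.948% to 0.961%). In the buds the shares were 0.707% for replicate 1 (0.701% to 0.713%) and 0.760% for replicate 2 (0.754% to 0.766%). Enzymes summed to 1895 and 4044 CPM in fruits 1 and 2, against 3699 and 3284 CPM in floral bud replicates 1 and 2. Transporters summed to 975 and 5076 CPM in fruits, against 2966 and 3893 CPM in buds. The transporter sums depend on which descriptions choose the members: means of 3025 CPM in fruits and 3429 CPM in buds became 1486 CPM in fruits and 1744 CPM in buds with the descriptions of replicates 1 taken first. The 2 fruits therefore lay on opposite sides of the buds for both kinds, and the gap was widest among transporters. Most of it sat in 43 members that were at least 4-fold lower in fruit replicate 1 than in floral bud replicate 1: these, picked by that difference, summed to 70.1 and 6369 CPM in fruits, against 4073 and 4631 CPM in buds. The other 248 members summed to 3269 and 3179 CPM in the fruits and to 2997 and 2971 CPM in buds, a range that is narrow beside the first.

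**Figure D1:**
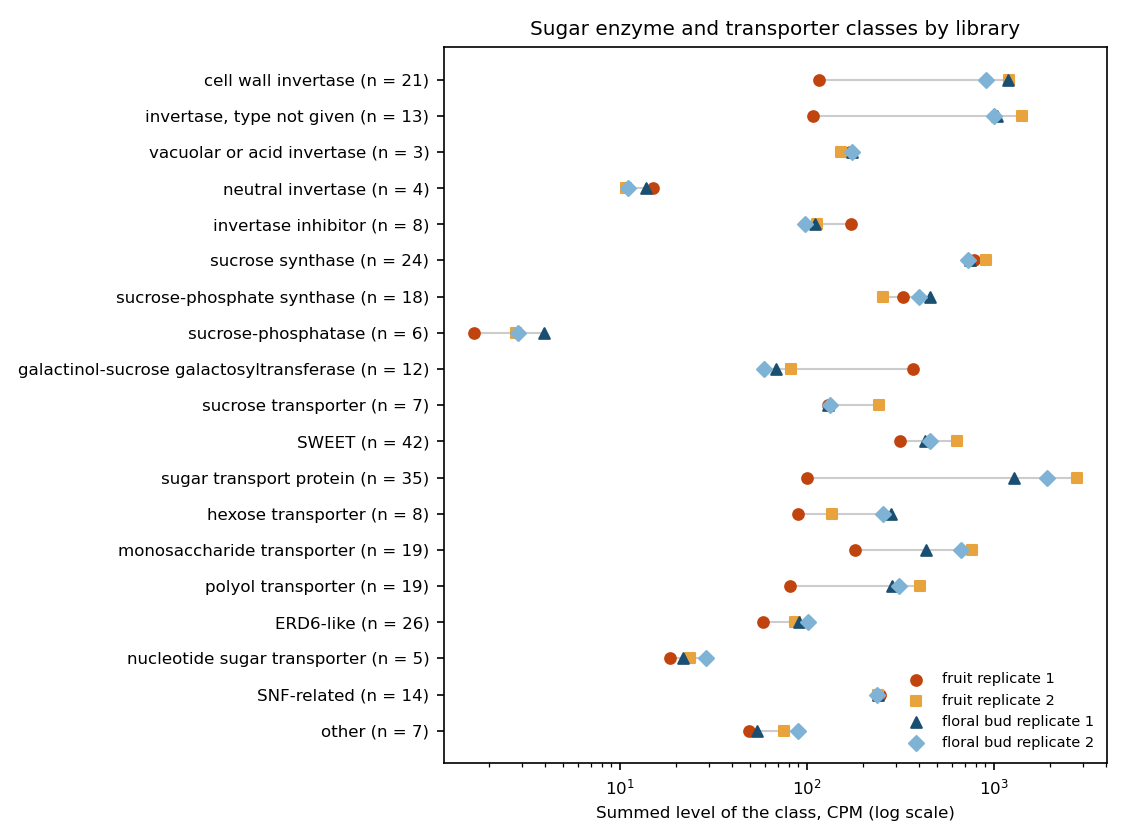
Summed level of each class of members in the 4 libraries, in CPM on a log scale; each row is a class with its number of unigenes, and each marker is 1 library. Vacuolar or acid invertases, sucrose synthases and SNF-related proteins lie close together in all libraries, whereas cell wall invertases, sugar transport proteins and polyol transporters are low in fruit replicate 1 alone.

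Fruit was compared with floral bud to ask which sugar transcripts differ as a flower turns into a fruit. The quasi-likelihood test of edgeR, adjusted by Benjamini-Hochberg, called 0 of 211 tested members higher and 0 lower at an adjusted p under 0.05; over all 59858 tested unigenes it called 0% in either direction. At an unadjusted p under 0.05, 7 members were higher and 7 lower in fruit, beside 0.51% and 1.11% of all tested unigenes. DESeq2 called 0 members higher and 1 lower of 222, beside 0.0491% and 0.21% of all. The median log2 fold change was 0.13 for the 77 tested enzymes and -0.07 for the 111 tested transporters, beside 0.01 over all tested unigenes. With 2 libraries per organ, the design's residual spread is large, and the missing calls do not show that the organs have equal levels.

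The result turned on which fruit library was kept. Without fruit replicate 2, edgeR called 16 of 233 members higher and 49 lower in fruit, where 2.29% and 6.14% of all unigenes were called; 37 of the 49 were transporters and 11 enzymes, and 11 of the 16 were enzymes. Without fruit replicate 1 it called 6 of 222 members higher, all transporters, and 2 lower, both sucrose-phosphate synthases, where 1.44% and 0.466% of all unigenes were called. Both fits use the same buds, and each takes its single fruit library to vary as the buds do. Within replicates 1, with 1 library per organ and so without a test, 11 of 211 members were at least 4-fold higher and 43 at least 4-fold lower in fruit, where 0.986% and 6.87% of all unigenes passed. Within replicates 2, 6 were at least 4-fold higher and 3 at least 4-fold lower, where 1.06% and 0.785% passed. Of the 43 members that were lower within replicates 1, 33 were transporters and 9 enzymes.

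**Figure D2:**
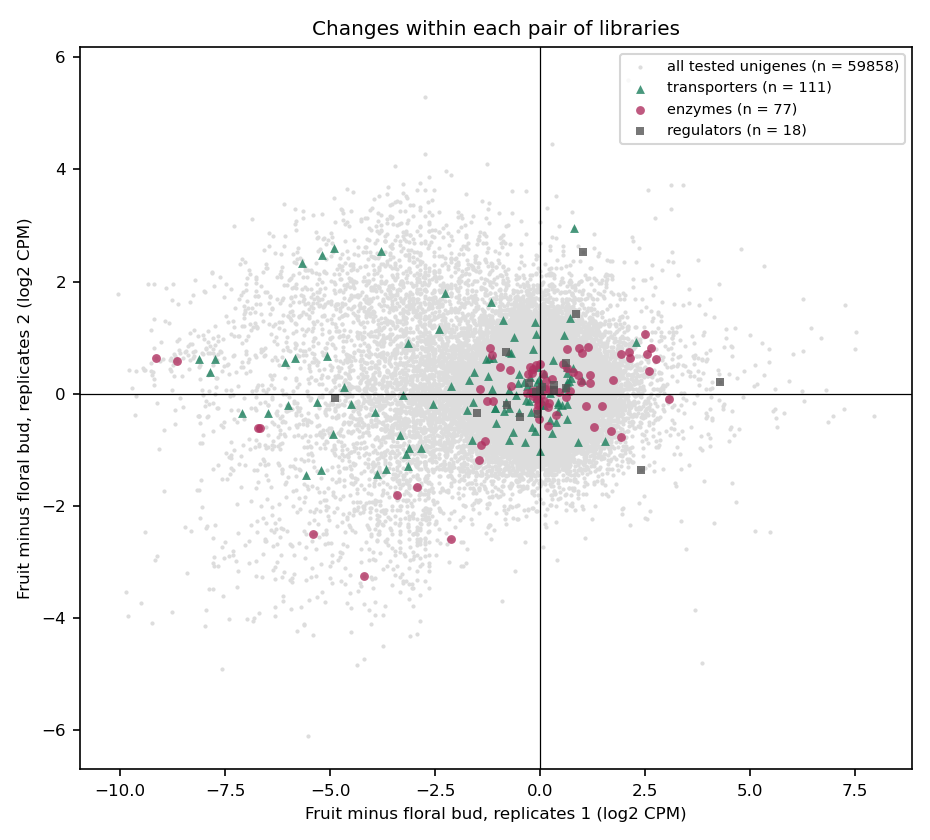
Difference of fruit minus floral bud in log2 CPM (TMM factors, prior count 2) within replicates 1 (horizontal axis) and within replicates 2 (vertical axis); each point is a unigene, grey for all 59858 tested and coloured for member transporters, enzymes and regulators. Transporters spread far to the left, at values near 0 or on either side of it on the vertical axis.

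Invertases gave the largest single levels among the enzymes. A cell wall transcript described as apoplastic invertase (Unigene54987_P106) stood at 1.0 and 1050 CPM in fruits 1 and 2, against 687 and 709 CPM in floral bud replicates 1 and 2. A transcript described as beta-fructofuranosidase, another name for invertase (Unigene53264_P106), stood at 2.22 and 1308 CPM in fruits, against 959 and 924 CPM in buds. Fruit replicate 1 was far below and fruit replicate 2 above both buds for each of them. Summed, the pair was 511-fold lower in fruit replicate 1 than in floral bud replicate 1 and 1.44-fold higher in fruit replicate 2 than in floral bud replicate 2. Per length, the beta-fructofuranosidase transcript was the most abundant member in fruit replicate 2 (1483 reads scaled to unigene length and library total, RPKM) and in the buds (1088 and 1047 RPKM). The log2 fold change over all libraries was -0.29 ± 2.31 for the first and -0.40 ± 2.21 for the second (SE), both with an edgeR adjusted p of 1. Without fruit replicate 2 the changes were -9.53 and -8.82, and without fruit replicate 1 they were 0.71 and 0.60.

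The remaining cell wall and unspecified invertases, 32 unigenes, summed to 221 and 273 CPM in fruits, against 586 and 283 CPM in buds. The high value of floral bud replicate 1 came mostly from transcripts described as insoluble isoenzyme 1-like, 5 unigenes that summed to 16.1 and 99.6 CPM in fruits, against 446 and 155 CPM in buds. The leading one (Unigene69695_P106) stood at 2.22 and 52.7 CPM in fruits, against 253 and 85.3 CPM in buds; both fruits were below both buds, with a log2 fold change of -2.49 ± 1.54 (SE, edgeR adjusted p = 1). A different apoplastic invertase transcript (Unigene69694_P106) stood at 35.2 and 25.8 CPM in fruits, against 17.8 and 15.3 CPM in buds. Its log2 fold change was 0.89 ± 0.30 (SE), with an unadjusted p of 0.037 and an edgeR adjusted p of 1, and it kept its sign with each library left out, at 0.77 to 0.99. Cell wall invertase transcripts thus differed among themselves in direction.

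Invertases of the other compartments differed little between the 2 organs. The vacuolar or acid class, 3 unigenes, summed to 171 and 152 CPM in fruits, against 175 and 174 CPM in buds. Both fruits were thus slightly below both buds in this sum. The vacuolar invertase (Unigene118251_P106) averaged 110 ± 14.2 CPM in fruits and 117 ± 6.76 CPM in buds (SD, n = 2 each), a log2 fold change of -0.08 ± 0.33 (SE). The transcript described as acid sucrose hydrolase (Unigene118332_P106) had 28.1 and 32.3 CPM in fruits, against 30.9 and 33 CPM in buds. Neutral invertases, the cytosolic kind, were rare, with 4 unigenes summing to 15.1 and 10.8 CPM in fruits, against 13.9 and 11.1 CPM in buds. Neither the vacuolar or acid nor the neutral class had a member at an unadjusted p under 0.05.

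Invertase inhibitors, small proteins that bind and block invertase, were grouped by name after their values were seen. The 5 described as invertase inhibitor summed to 163 and 71.5 CPM in fruits, against 83.9 and 48.0 CPM in buds. The 3 described as putative inhibitors summed to 10 and 42.2 CPM in fruits, against 26.3 and 49.8 CPM in buds. In both sums the organs overlapped, and no inhibitor had an unadjusted p under 0.05 in edgeR. The most abundant inhibitor (Unigene127955_P106) stood at 117 and 59.6 CPM in fruits, against 74.0 and 42.6 CPM in buds, so the organs overlapped. The inhibitor Unigene78874_P106 stood at 23.2 CPM in fruit replicate 1 but at 1.21 CPM in fruit replicate 2, against 0.93 and 1.07 CPM in buds; its log2 fold change of 3.51 ± 1.38 (SE) was 0.39 without fruit replicate 1. The putative inhibitor Unigene99007_P106 went the other way, with 0 and 18.1 CPM in fruits, against 6.94 and 20.1 CPM in buds, and a log2 fold change of 0.52 without fruit replicate 1.

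Sucrose synthase had the largest summed level of the enzyme classes in fruit replicate 1. Its 24 unigenes, of which 20 were tested, summed to 785 and 909 CPM in fruits, against 749 and 724 CPM in buds, so both fruits were above both buds. The 2 leading transcripts, Unigene54383_P106 at 248 and 402 CPM in fruits against 269 and 312 CPM in buds, and Unigene54329_P106 at 251 and 309 CPM in fruits against 289 and 234 CPM in buds, overlapped between organs. Their log2 fold changes were 0.20 ± 0.49 and 0.13 ± 0.41 (SE). In fruit replicate 1 they were the most abundant members per length, at 250 and 195 RPKM. A sucrose synthase-like transcript (Unigene142546_P106) stood at 33.2 and 21.5 CPM in fruits, against 14.6 and 12.7 CPM in buds, with a log2 fold change of 1.0 ± 0.32 (SE), an unadjusted p of 0.031 and an edgeR adjusted p of 1. Its sign held with each library left out, at 0.78 to 1.19.

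Sucrose-phosphate synthase, the enzyme that makes sucrose phosphate, was lower in fruit in both pairs of libraries for 2 of its forms. The 7 unigenes described as form A2, all hitting one database entry, held 6 and 32 counts in fruit replicates 1 and 2, against 218 and 248 counts in floral bud replicates 1 and 2. That is 0.67 and 3.88 CPM in fruits, against 25.2 and 29.6 CPM in buds. In each of the 7 both fruits were below both buds, as in 13.6% of all tested unigenes. Hitting one entry, the 7 are not separate observations. With so few counts in fruits, the 5 of the 7 that passed the filter on low counts did so on their bud counts. Summed to 1 row before the fit, the entry had a log2 fold change of -3.51 ± 0.95 (SE), with an unadjusted p of 0.019 and an edgeR adjusted p of 1. Its unigene Unigene60771_P106 (0.11 and 0.73 CPM in fruits, against 6.13 and 9.19 CPM in buds) was the only member that DESeq2 called, with an adjusted p of 0.0034 and a log2 fold change of -4.17. Without fruit replicate 1, edgeR called 2 unigenes of the entry lower, this one (-3.26, adjusted p = 0.011) and Unigene107930_P106 (-2.57, adjusted p = 0.023). These unigenes rest on at most 13 counts in a fruit library.

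Form B was more abundant and its difference smaller. Its 4 unigenes summed to 88.8 and 108 CPM in fruits, against 211 and 207 CPM in buds, which is 2.38-fold lower in fruit within replicates 1 and 1.92-fold lower within replicates 2. The longest (Unigene110395_P106) stood at 41.2 and 45.8 CPM in fruits, against 99.6 and 86.4 CPM in buds. Its log2 fold change was -1.07 ± 0.34 (SE), with an unadjusted p of 0.029 and an edgeR adjusted p of 1, and ranged from -1.27 to -0.90 with each library left out. One form B unigene, Unigene4452_P106, did not share this, with 8.33 and 9.34 CPM in fruits, against 9.14 and 9.79 CPM in buds. The most abundant synthase transcript (Unigene2822_P106) overlapped between organs, at 101 and 65.2 CPM in fruits, against 84.2 and 76.8 CPM in buds. Of the 7 members at an unadjusted p under 0.05 in the lower direction, 6 were sucrose-phosphate synthases of forms A2 and B. Sucrose-phosphatase, the next enzyme, was near the limit of this depth, with 6 unigenes that summed to 1.67 and 2.79 CPM in fruits, against 3.93 and 2.87 CPM in buds, and 1 of them tested.

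Galactinol-sucrose galactosyltransferase, the enzyme that makes raffinose from sucrose and galactinol, stood out in fruit replicate 1. Its 6-like form, 7 unigenes hitting one entry, summed to 332 and 64.6 CPM in fruits, against 55.9 and 41.6 CPM in buds. It was 5.15-fold higher in fruit replicate 1 than in the highest of the other libraries, and 1.55-fold higher in fruit replicate 2 than in floral bud replicate 2. The leading unigene (Unigene127858_P106) stood at 87.2 and 15.2 CPM in fruits, against 13.3 and 8.96 CPM in buds, and a second (Unigene110244_P106) at 71.8 and 15.8 CPM, against 10.1 and 10.7 CPM. Their log2 fold changes were 2.15 ± 0.84 and 2.02 ± 0.73 (SE), both with an edgeR adjusted p of 1; without fruit replicate 1 they were 0.58 and 0.72. Photosynthesis transcripts were also highest in fruit replicate 1, and their part in this was not tested.

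**Figure D3:**
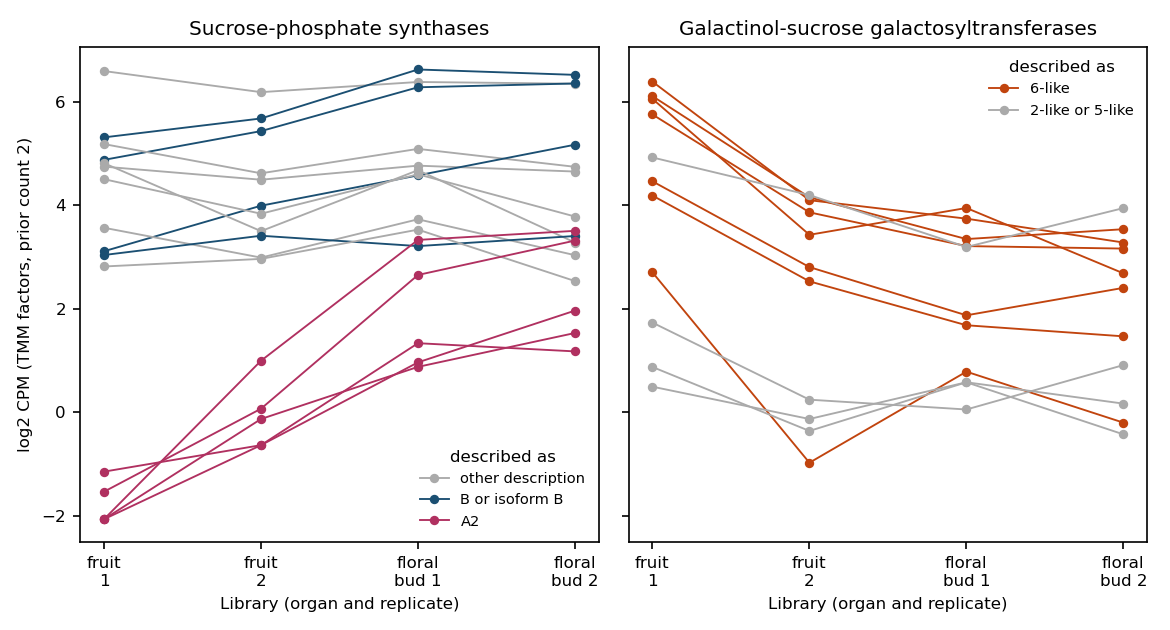
Levels in log2 CPM (TMM factors, prior count 2) of the tested sucrose-phosphate synthases (left) and galactinol-sucrose galactosyltransferases (right) in the 4 libraries; each line joins the values of 1 unigene and implies no order of replicates. All 5 tested A2 unigenes, which hit one entry and passed the filter on their bud counts, are lower in both fruits than in both buds. The 6-like galactosyltransferases are highest in fruit replicate 1.

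Among transporters, the hexose symporters carried the largest differences between the 2 fruits. Sugar transport protein 8-like transcripts, 12 unigenes of 3 entries, summed to 20.8 and 1788 CPM in fruits 1 and 2, against 888 and 1215 CPM in floral bud replicates 1 and 2. The leading one (Unigene53226_P106) stood at 8.55 and 1054 CPM in fruits, against 486 and 715 CPM in buds. Sugar transport protein 10-like (Unigene54247_P106) stood at 0.89 and 868 CPM in fruits, against 305 and 598 CPM in buds. The transcripts named putative monosaccharide transporter 1, 2 unigenes of one entry (Unigene53489_P106 and Unigene54359_P106), summed to 0.56 and 555 CPM in fruits, against 231 and 419 CPM in buds. These sums and leading unigenes had their lowest level in fruit replicate 1 and their highest in the other fruit. Not every 8-like unigene did so: 1 entry of 2 unigenes stood at 0 and 24.5 CPM in fruits, against 42.4 and 32.2 CPM in buds. Relative to floral bud replicate 1, fruit replicate 1 was 42.7-fold lower for the 8-like group, 329-fold lower for both 10-like unigenes together and 417-fold lower for monosaccharide transporter 1. Relative to floral bud replicate 2, fruit replicate 2 was 1.47-fold, 1.45-fold and 1.32-fold higher for the same groups. Over all libraries the log2 fold changes of these 4 leading unigenes lay between -0.22 and 0.06, with SEs of 1.87 to 2.32.

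**Figure D4:**
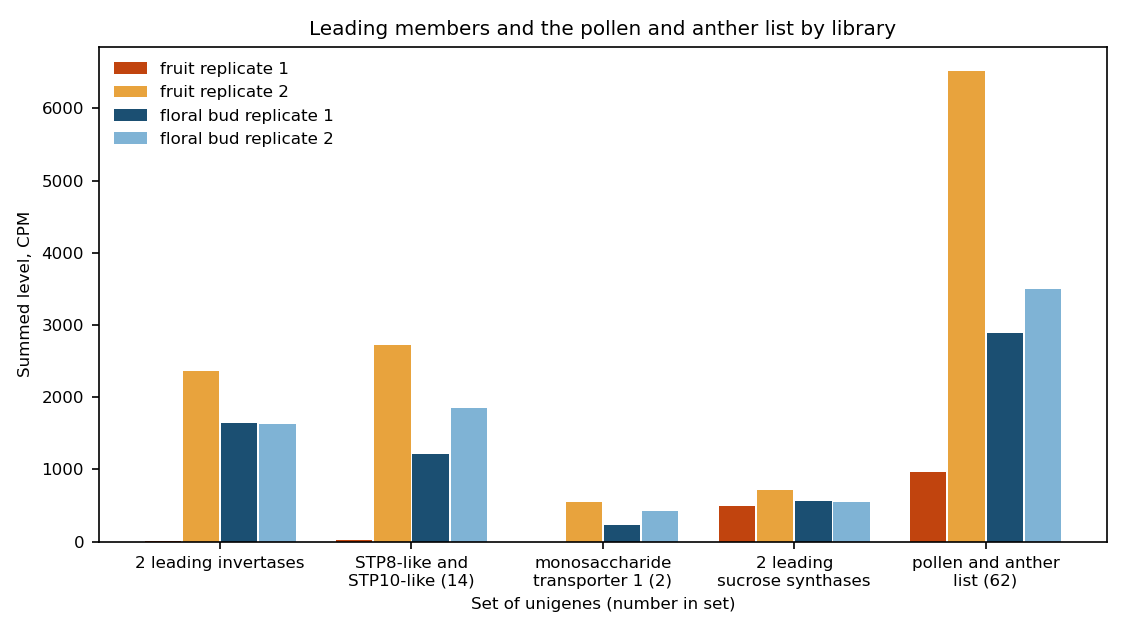
Summed level, in CPM on an axis from 0, of leading members and of the pollen and anther list in each library; each bar is 1 library. The 2 leading invertases, the 14 unigenes of sugar transport proteins 8-like and 10-like and monosaccharide transporter 1 were lowest in the first fruit library. That gap was wide, with the invertases at 3.22 CPM there and at 1633 CPM in the next lowest library. Their highest level was in the second fruit library, by a smaller margin (invertases 2358 CPM, against 1647 CPM in floral bud replicate 1). As a sum, the pollen and anther list had the same lowest and highest library, at 967 and 6523 CPM, against 2893 and 3498 CPM in buds. So did the 2 leading sucrose synthases, within 498 to 711 CPM. Single unigenes of the pollen and anther list did not all do so.

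Other hexose carriers differed less. Monosaccharide-sensing proteins, which in Arabidopsis are carriers of the vacuolar membrane, comprised 17 unigenes and summed to 180 and 210 CPM in fruits, against 205 and 250 CPM in buds. Sugar transport protein 14-like transcripts summed to 38.5 and 38.1 CPM in fruits, against 43.0 and 48.6 CPM in buds. Both sums stayed within a narrow range in all libraries, but entries within the first differed. A monosaccharide-sensing protein 2-like entry stood at 73.5 and 138 CPM in fruits, against 128 and 180 CPM in buds. Another stood at 85.3 and 49.0 CPM in fruits, against 51.7 and 42.6 CPM in buds. Of 8 unigenes described as hexose transporter, 2 of one entry had both fruits well below both buds. The leading one (Unigene7531_P106) stood at 22.4 and 73.7 CPM in fruits, against 193 and 152 CPM in buds, with a log2 fold change of -1.76 ± 0.73 (SE, edgeR adjusted p = 1). The next (Unigene70026_P106) stood at 6.22 and 25.4 CPM in fruits, against 44.5 and 52.4 CPM in buds, with a log2 fold change of -1.54 ± 0.79 (SE). Both kept a negative sign with each library left out, at -3.04 to -1.10 and at -3.07 to -0.82. The 4 other tested hexose transporters overlapped between organs or, for Unigene17461_P106, stood higher in fruits, at 9.22 and 6.67 CPM, against 5.32 and 5.73 CPM in buds.

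SWEET transcripts, 42 unigenes with the NEC1 descriptions, summed to 316 and 634 CPM in fruits, against 427 and 456 CPM in buds, and their members went in different directions. The 6 unigenes described as SWEET16-like, SWEET6a-like or SWEET5-like were put together after their values were seen. They had no count at all in fruit replicate 1, and summed to 84.8 CPM in fruit replicate 2, against 64.5 and 115 CPM in buds. Set against the floor of 3 counts, this chosen group was at least 194-fold lower in fruit replicate 1 than in floral bud replicate 1. That fold describes the chosen group and not SWEETs in general. Without fruit replicate 1 the log2 fold changes of the 6 lay between -1.53 and 0.74, and edgeR called none of them. NEC1, named for the nectary of petunia, had 2 unigenes at 1.89 and 159 CPM in fruits, against 42.6 and 27.7 CPM in buds; fruit replicate 2 was 5.75-fold above floral bud replicate 2. A SWEET10-like transcript (Unigene71051_P106) was also highest in fruit replicate 2, with 2.67 and 22.7 CPM in fruits, against 1.39 and 2.87 CPM in buds. Both NEC1 unigenes and this one were among the 6 members called higher without fruit replicate 1, with log2 fold changes of 2.50 and 2.08 for NEC1 and 3.52 for SWEET10-like; without fruit replicate 2 these were -5.39, -3.64 and 0.20.

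The most abundant SWEETs did not separate the organs. The leading one, SWEET1-like (Unigene29613_P106), stood at 35.5 and 59.8 CPM in fruits, against 57.5 and 59.8 CPM in buds, and SWEET12-like (Unigene29019_P106) stood at 17.8 and 71.7 CPM, against 40.8 and 60.8 CPM. Among SWEET11-like transcripts, Unigene70307_P106 was higher in both fruits, at 41.1 and 32.8 CPM, against 26.7 and 16.6 CPM in buds. Unigene54162_P106 overlapped, at 23.0 and 12.0 CPM in fruits, against 16.4 and 14.4 CPM in buds. A further one (Unigene71020_P106) was similar in both fruits and higher there, at 18.4 and 18.6 CPM, against 10.8 and 7.52 CPM in buds. Its log2 fold change was 1.04 ± 0.34 (SE), with an unadjusted p of 0.031 and an edgeR adjusted p of 1. An NEC1-like transcript (Unigene70958_P106), from a different entry than NEC1, was similar in both fruits and lower there, at 4.22 and 4.85 CPM, against 13.1 and 9.19 CPM in buds. Its log2 fold change was -1.26 ± 0.37 (SE), with an unadjusted p of 0.023 and an edgeR adjusted p of 1. Unigene71020_P106 and Unigene70958_P106 kept their sign with each library left out.

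Sucrose transporters, which load and unload the phloem, were led by 3 unigenes of one entry described as SUC2. These summed to 90.2 and 213 CPM in fruits, against 102 and 105 CPM in buds. Fruit replicate 2 was 2.03-fold above floral bud replicate 2, and fruit replicate 1 was slightly below the buds. The leading unigene (Unigene54711_P106) had a log2 fold change of 0.61 ± 0.52 (SE, edgeR adjusted p = 1), which was -0.16 without fruit replicate 2.

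Polyol transporters, carriers of sugar alcohols, held opposite patterns under the same description. Of 5 unigenes described as polyol transporter 6-like, Unigene127089_P106 stood at 0.33 and 158 CPM in fruits, against 28.3 and 32.8 CPM in buds, and Unigene127386_P106 at 0 and 54.2 CPM, against 8.56 and 10 CPM. Unigene6359_P106 stood at 2.33 and 14 CPM in fruits, against 36.8 and 39.9 CPM in buds, and Unigene6531_P106 at 2.33 and 10.7 CPM, against 31.5 and 28.9 CPM. Fruit replicate 2 was therefore above both buds for the first pair and below both for the second. The first pair was called higher by edgeR without fruit replicate 1 (log2 fold changes 2.48 and 2.66, adjusted p = 0.00084 and 0.00079), under the same assumption on its single fruit library. The more abundant polyol transporter 5-like entry, 7 unigenes, summed to 53.0 and 147 CPM in fruits, against 155 and 175 CPM in buds.

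ERD6-like transporters, of which the Arabidopsis namesake responds to dehydration, summed to 58.4 and 87.0 CPM in fruits, against 91.5 and 102 CPM in buds. The leading 6-like transcript (Unigene1621_P106) stood at 1.78 and 25.4 CPM in fruits, against 29.8 and 33.7 CPM in buds, with a log2 fold change of -1.12 ± 1.22 (SE) that was -0.21 without fruit replicate 1 and -4.26 without fruit replicate 2. The 16-like transcript (Unigene81897_P106) stood at 17.0 and 8.13 CPM, against 8.10 and 7.16 CPM. Nucleotide sugar transporters, which carry sugar donors into the Golgi, summed to 18.6 and 23.9 CPM in fruits, against 21.7 and 28.8 CPM in buds. SNF-related proteins, relatives of the SNF1 kinase that is named for yeast mutants unable to ferment sucrose, were the most even class, with 246 and 239 CPM in fruits, against 240 and 237 CPM in buds. Their leading member, a SNF1-related kinase 2 (Unigene6826_P106), stood at 119 and 96.0 CPM in fruits, against 112 and 93.5 CPM in buds.

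**Figure D5:**
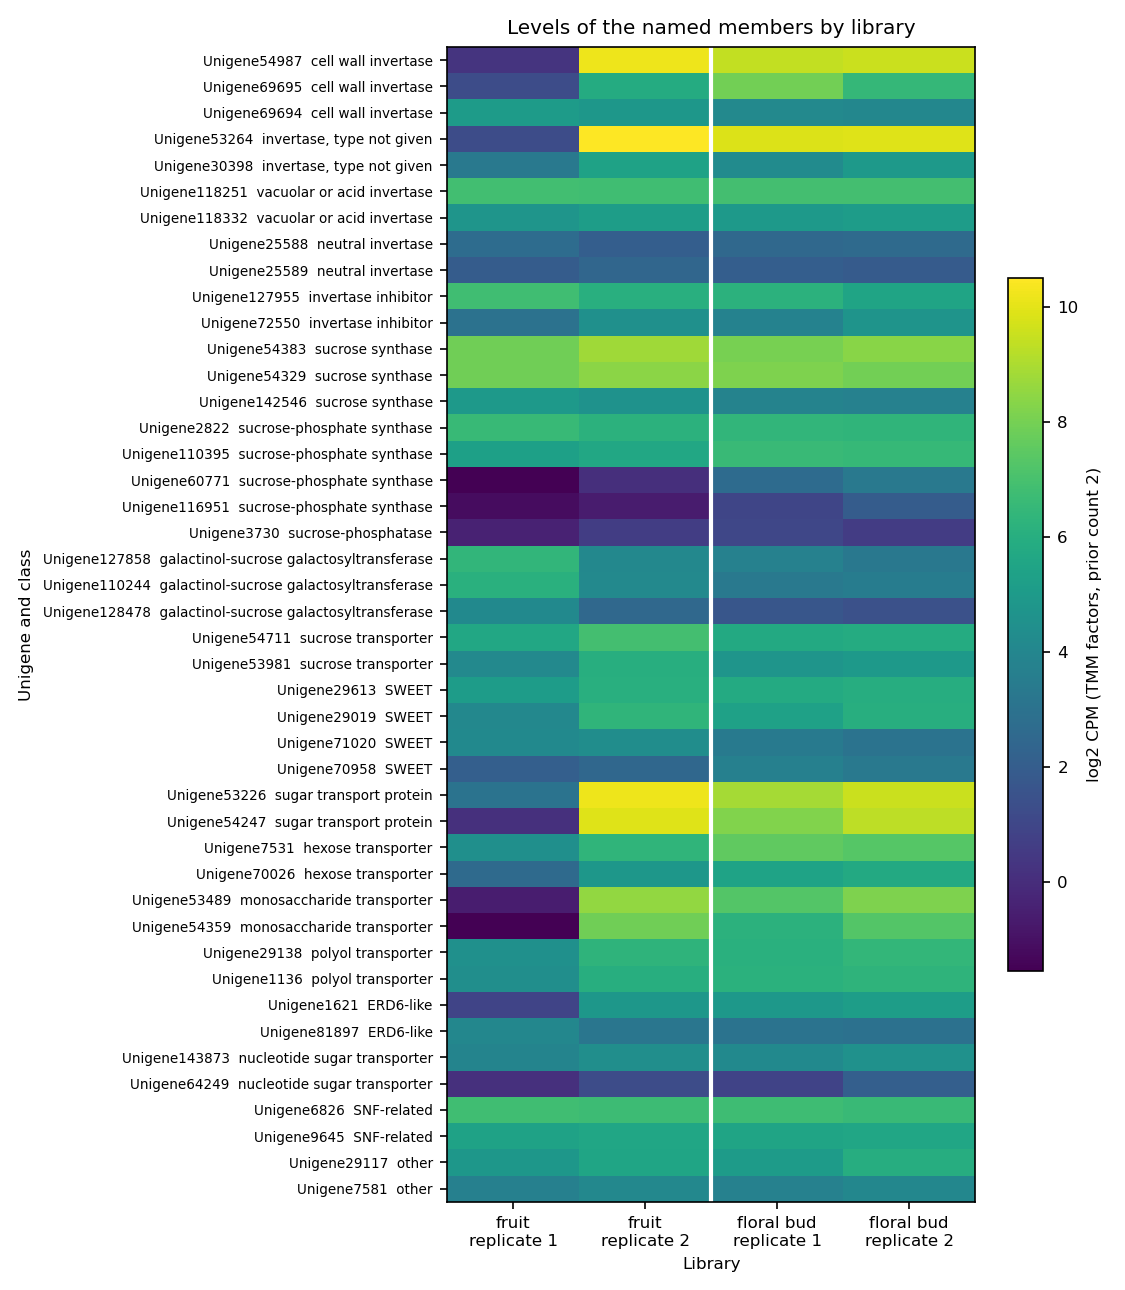
Level in log2 CPM (TMM factors, prior count 2) of the 44 tested members named by rule, in rows grouped by class, in the 4 libraries; brighter colours are higher. The leading invertases, sugar transport proteins and monosaccharide transporters are dark in fruit replicate 1 alone, and the A2 sucrose-phosphate synthases are dark in both fruits.

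Agreement between the pairs of libraries differed by kind. Enzyme changes within replicates 1 and within replicates 2 had Pearson's r of 0.404 over 77 unigenes. Transporter changes had r of -0.03 over 111 and all tested unigenes -0.01 over 59858. Unigenes are not independent replicates, and many share a database entry. The 6 enzymes at least 2-fold lower in both pairs were all sucrose-phosphate synthases, 5 of them of one entry. Their weight in the r of the enzymes was not tested. At least 2-fold in both pairs, 2 members were higher and 12 lower in fruit, where 0.473% and 1.84% of all tested unigenes passed. The 12 comprised 5 unigenes of sucrose-phosphate synthase A2, 1 of form B, 2 SWEET5-like, 3 polyol transporter 6-like and 1 sugar transport protein 1-like unigenes. The 2 were a 6-like galactosyltransferase (Unigene128478_P106) and an invertase inhibitor (Unigene39295_P106). Both fruits lay above both buds in 28 of 211 members and below both in 42, where 8.49% and 13.6% of all tested unigenes did.

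Low counts seen in fruit replicate 1 alone were mostly transporters. At most 3 counts in fruit replicate 1 and at least 50 in each other library were found for 11 members, 10 transporters and the putative inhibitor named above, where 1.18% of all tested unigenes met this. Conversely, fruit replicate 1 was at least 4-fold above each other library for 10 members, where 0.682% of all did. These were 5 of the 6-like galactosyltransferases, 2 invertase inhibitors, 2 invertases and 1 transporter. The pollen and anther list also held its low values there: 26 of its 49 tested unigenes were at least 4-fold lower in fruit replicate 1 than in floral bud replicate 1, where 6.87% of all tested unigenes were.

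The next steps of the pathway were read from a list of 170 unigenes outside the members (hexokinases, fructokinases, phosphoglucomutases, UDP-glucose pyrophosphorylases, trehalose enzymes and related words), of which 133 were tested. They summed to 2829 and 3235 CPM in fruits, against 3702 and 3791 CPM in buds, with a median log2 fold change of 0.00. edgeR called 0 higher and 0 lower; at an unadjusted p under 0.05, 0 were higher and 12 lower, and DESeq2 called 2 lower of 136. Over all tested unigenes these shares were 0.51% higher and 1.11% lower at an unadjusted p under 0.05, and 0.21% lower by DESeq2. The 4 with the smallest unadjusted p were all described as 6-phosphofructokinase 3-like, an enzyme of glycolysis, and each was below 9 CPM in every library. They held at most 7 counts in a fruit library, so they passed the filter on low counts on their bud counts. The 2 that DESeq2 called were among these. Some more abundant unigenes of that description overlapped between organs, such as Unigene131400_P106 at 33.7 and 21.8 CPM in fruits, against 33.7 and 23.8 CPM in buds. Another, Unigene131082_P106, was lower in both fruits, at 9.66 and 5.10 CPM, against 9.83 and 9.67 CPM in buds. All 6-phosphofructokinases together summed to 260 and 236 CPM in fruits, against 298 and 285 CPM in buds. Hexokinases, which phosphorylate glucose, summed to 188 and 280 CPM in fruits, against 301 and 295 CPM in buds. Fructokinases, which phosphorylate fructose, summed to 262 and 1177 CPM, against 732 and 850 CPM, with fruit 1 lowest and fruit 2 highest as for the leading invertases. UDP-glucose pyrophosphorylases summed to 646 and 377 CPM in fruits, against 755 and 782 CPM in buds.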

How the data were processed

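RNA-seq libraries, 2 of fruit and 2 of floral bud, were assigned to organs by title; the design text speaks of triplicates. The authors deposited, per the file headers, the number of uniquely mapped reads (counts), the length, the coverage in percent and the RPKM of each unigene. Coverage was not used, and RPKM served only to rank members within a library. The programs for assembly, alignment and counting: not given in the sources used here. Unigenes missing from a file were taken as 0. Counting unique reads can split or drop reads of near-identical unigenes, which makes levels of unigenes with one description uncertain.

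Descriptions came from the files of replicates 2, else of replicates 1. The members, classes, lists and tests were chosen with earlier results of these data known. Class patterns were corrected after the descriptions were seen: insoluble and apoplastic invertases were put with cell wall invertases, NEC1 with SWEETs, and galactinol-sucrose galactosyltransferases in a class of their own; nucleotide sugar transporters must name transport. The word fructokinase also takes in 6-phosphofructokinases in the pathway list; the sum given for fructokinases leaves them out.

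The test was run in edgeR 4.0.16 under R 4.3.3 on the counts (filterByExpr by organ, TMM factors, quasi-likelihood test of fruit over floral bud, two-sided, Benjamini-Hochberg over 59858 unigenes, threshold 0.05); 211 members passed the filter. The script was tested on simulated data with a dispersion (spread beyond counting error) of 0.05. The common dispersion of the real data was higher, at 0.283, so that test does not measure the power here. SEs are the log2 fold change over the square root of F. CPM uses library totals. Alternatives were DESeq2 1.42.0, RLE factors, 2 other filters, a replicate block, leaving out each library, descriptions of replicates 1 first, and unigenes summed by database entry, the last chosen after seeing the data. The rule for names took the 2 members of each class with the highest mean CPM. It also took the 4 with the smallest unadjusted p in each direction, 45 in all. Other unigenes named, and the groups of unigenes pooled by description or entry within a class, were chosen after their values were seen. No sequences are shown.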

Additional observations from a re-analysis of the deposited data

How the results depend on the processing

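No setting with all 4 libraries gave a member an edgeR adjusted p under 0.05. Over all unigenes DESeq2 called 30 higher and 128 lower, and 1 member lower. With each library left out, edgeR called 0 to 1546 unigenes higher and 0 to 4135 lower, and 0 to 16 members higher and 0 to 49 lower; without floral bud replicate 1 or 2 it called none. The enzyme median of 0.13 became 0.15 with RLE factors, 0.11 with a replicate block and -0.011 to 0.22 with each library left out, and the transporter median ranged from -0.56 to 0.21. The labels do not say that replicate numbers pair the samples; deviations of same-numbered libraries had r = 0.466, and the replicate block left the calls of edgeR at 0 while it turned the sign of Unigene30398_P106 (-0.24), Unigene54247_P106 (-3.76), Unigene54359_P106 (-3.48) and Unigene7581_P106 (-0.0022). Putting the descriptions of replicates 1 first gave 211 members, 165 of them shared, and a mean transporter sum of 1744 CPM in buds, where the main choice gave 3429 CPM; the cause was not tested. Summed by database entry, edgeR called 0 of 120 tested member entries. It also called 0 of all 34503 tested rows, which include unigenes without an entry. With 1 library left out, the log2 fold change of 23 of the 44 tested members named by rule turned sign, with these ranges: Unigene118332_P106 (-0.29 to 0.14), Unigene143873_P106 (-0.50 to 0.057), Unigene25588_P106 (-0.54 to 0.13), Unigene25589_P106 (-0.025 to 0.44), Unigene2822_P106 (-0.18 to 0.22), Unigene29019_P106 (-1.63 to 0.61), Unigene29117_P106 (-0.75 to 0.21), Unigene29138_P106 (-1.81 to 0.019), Unigene29613_P106 (-0.83 to 0.15), Unigene30398_P106 (-1.34 to 0.76), Unigene53226_P106 (-6.25 to 0.92), Unigene53264_P106 (-8.82 to 0.60), Unigene53489_P106 (-9.0 to 0.77), Unigene53981_P106 (-0.77 to 1.14), Unigene54247_P106 (-9.10 to 1.05), Unigene54329_P106 (-0.16 to 0.37), Unigene54359_P106 (-9.90 to 1.06), Unigene54383_P106 (-0.34 to 0.59), Unigene54711_P106 (-0.16 to 1.11), Unigene54987_P106 (-9.53 to 0.71), Unigene72550_P106 (-1.35 to 0.18), Unigene7581_P106 (-0.21 to 0.18), Unigene9645_P106 (-0.15 to 0.062). Depth limits sucrose-phosphatases and the 79 members with a mean under 10 counts.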
